A study of Mus musculus with 12 samples.

Results

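The cytosolic ribosome is built from ribosomal RNA and a fixed set of proteins, and the genes described here encode those proteins, measured in mouse spinal cord. They were chosen by name and by mean level: a gene symbol of Rpl or Rps followed by a number (with at most 1 further letter), of the stalk series Rplp, or Rpsa, and a mean of at least 10 TPM over the libraries. TPM is the length-scaled level that the authors deposited. Of 38924 genes in the files 80 symbols matched, and 76 passed the level minimum: 30 of the small subunit, 43 of the large subunit and 3 of the stalk, a flexible arm of the large subunit. Because the TPM chose the members, their levels are given as a description.

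The whole cord of 12 mice on a B6J;CAST background was sequenced at an age of 1 week, with 1 library per mouse. There were 6 wt mice and 6 with the P278KY allele of Gars over a wild-type copy, and 3 of each 6 were labelled female and 3 male. Gars encodes glycyl-tRNA synthetase, which charges tRNA with glycine, and the series compares mutant with wt cord before disease onset. The libraries carry mouse numbers: female wt 1, 2 and 14, female P278KY 4, 7 and 10, male wt 6, 9 and 19, and male P278KY 3, 5 and 13. Whole cord mixes neurons, glia, vessels and blood, so fewer cells of a type and less RNA per cell cannot be told apart.

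Each library held between 27713981 and 43219891 expected counts. Gars mRNA averaged 124.5 CPM (counts scaled to library size) with an SD of 6.74 in the 6 wt mice, and 131 CPM with an SD of 7.36 in the 6 mutants. The two-sided exact permutation test gave p = 0.132, where the smallest possible is 0.00216, so its mRNA does not check the genotype labels. All 16 markers of cord cells were detected in every library, with a summed level of 14917 to 25403 CPM. Sex marks went against the label in 2 wt libraries: Xist was at 0.533 CPM and the Y-linked Ddx3y at 45.1 CPM in female wt 14, and they were at 859.8 and 0.0233 CPM in male wt 19. They are called sex-discordant below, and results that rest on them are given with and without them.

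Ribosomal protein genes are among the most highly transcribed in any growing cell. Many of their mRNAs begin with an unbroken stretch of C and T (the 5′ terminal oligopyrimidine, or TOP, motif), through which mTOR signalling adjusts their translation as a block. Their genes have also left many processed pseudogenes, intronless copies made by reverse transcription of the mRNA, scattered over the genome. Some of these copies still match the parent's coding sequence almost base for base.

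Start regions were looked up in RefSeq (GRCm38.p6), which gave a promoter for 56 of the 76 genes. A run of at least 8 C or T bases on the transcript strand lay between 50 bases before and 50 after the start in 46 of the 56 (82.1%), against 35.7% of 27025 genes. The hexamer CTTTCC, which can lie inside such a run, was found on the transcript strand of the same window in 26.8% of these genes and in 4.67% of all genes. Searched on both strands over 300 bases, CCGGAAG, the core letters bound by ETS-family factors such as GABP, was found in 41.1% against 9.12%. TATAAA, searched the same way, was found in 8.93% against 14.2%. These matches describe letters and are neither sites nor causes. The windows below show the run, in capitals, in genes whose values are given later, each read 5′ to 3′ on the transcript strand.
Rpl7a: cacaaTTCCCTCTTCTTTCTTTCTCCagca
Rpl28: gcctctcgtgTCTCTCTTTCCgtctccggc
Rps6: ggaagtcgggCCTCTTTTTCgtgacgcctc
Rpl4: gagcgtggCCTTCTCCTCTCCCCgtcatgg
Rps2: aaattgtcccttccgcggcgCCTCCCTCTT
Rplp0: aggaccgcctggTTCTCCTataaaaggcac
These lie at chr2:26910788-26910817 (plus strand) for Rpl7a, chr7:4792952-4792981 (plus) for Rpl28, chr4:86857349-86857378 (minus) for Rps6, chr9:64173405-64173434 (plus) for Rpl4, chr17:24720083-24720112 (plus) for Rps2 and chr5:115559466-115559495 (plus) for Rplp0. The run of 21 bases at Rpl7a was the longest among the 56 genes, while Rplp0 had a longest run of 7 and so falls outside the count of 46. Counted from the start as 0, the runs lay at -14 to 6 in Rpl7a, -3 to 7 in Rpl28 and -1 to 8 in Rps6. They lay at 11 to 17 in Rplp0, 26 to 40 in Rpl4 and 40 to 49 in Rps2, where the searched stretch ended. Whether any of these runs begins the mRNA was not tested.

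Together the 76 genes took between 1.05% and 1.301% of all counts (mean 1.16%) and between 3.56% and 4.64% of all TPM. The share of counts was 1.17 ± 0.107% in wt and 1.16 ± 0.0631% in P278KY libraries (SD, n = 6 each), a difference smaller than either spread. The highest mean TPM belonged to Rplp1, a stalk protein that helps recruit translation factors, at 1615 ± 179 TPM (SD, n = 12). In wt it stood at 1703, 1637, 2084, 1463, 1446 and 1697 TPM, and in P278KY at 1401, 1582, 1598, 1492, 1657 and 1622 TPM. The genotypes overlapped, and the highest of the 12 values was that of female wt 14. Rpl13a followed at 1541 ± 145 TPM, then Rps24 at 1458 ± 103, Rps29 at 1427 ± 187, Rpl23a at 1401 ± 98.7 and Rpl41 at 1392 ± 108. Rpl23a sits at the exit of the peptide tunnel, and Rpl41 encodes one of the smallest proteins of the cell. Neighbours among these 6 differed by less than their spread over libraries. Rps15 at 1174 ± 101 TPM, Rps26 at 963 ± 156 and Rps21 at 878 ± 61.1 each stood below the gene before them by more than either spread, while Rpl26, at 954 ± 46.9 TPM, did not differ from Rps26 beyond it.

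At the other end stood Rpl24 at 16.02 ± 1.69 TPM, Rpl31 at 26.2 ± 1.86, Rps6 at 29.5 ± 5.85, Rpl12 at 32.8 ± 2.51 and Rpl27 at 45.6 ± 4.87 TPM. Rpl24 was the nearest above the minimum, and the length used for it in the files was 4584 bases, against 495 bases for Rplp1. TPM divides by that length, so the low level of Rpl24 depends on it. Of the 4 matching symbols under the minimum, Rpl3l, a striated-muscle paralog of Rpl3, was the nearest at 2.96 TPM, and the paralogs Rpl39l and Rpl10l followed at 0.133 and 0.00583 TPM. Rps27, a zinc-binding protein of the small subunit, was listed at 0 in all 12 libraries.

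The levels spanned a 101-fold range for the gene rows alone. Coding sequences were compared with all annotated transcripts of GENCODE M21 (GRCm38), and a gene in the files was called a near-identical copy at 95% identity over at least 80% of the coding sequence. Of the 76 genes 62 had such a copy, and 352 of the 371 copies were annotated as pseudogenes, processed or unprocessed. Counts had been assigned to 300 of the copies. In sum 21.5% of all counts on these genes and their copies were on the copies, and in 16 genes the copies held more than 50%.

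Rps6, the small-subunit protein phosphorylated by S6 kinases, is the clearest case: 94.8% of the counts were on copies, mostly on Rps6-ps4, whose 747 coding bases were the same as those of Rps6. With copies added the level of Rps6 went from 29.5 to 650 ± 32.4 TPM. Rpl31 had 93.0% of its counts on copies and went from 26.2 to 1414 ± 83.3 TPM, which moved it from the 75th to the 6th place. In CPM it was at 13.9 alone, with 185 on its copies. The TPM of each row is divided by its own length, so TPM with copies depends on the lengths of the copies too. Shares between 85% and 93% were also found in Rpl12 (92.3%), Rps13 (90.1%), Rpl27 (88.8%), Rpl27a (86.3%), Rpl28 (86.0%) and Rpl10a (85.6%). Rps27 had 2 copies with counts, of which Gm9846, with the same coding sequence, held the most. Counts on these copies came to 113 ± 12.4 CPM in wt and 110.2 ± 5.82 CPM in mutant libraries.

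The order of levels therefore differs between the 2 ways of counting. With copies added the highest were Rps29 at 1989 ± 156 TPM, Rplp1 at 1628 ± 185, Rps28 at 1547 ± 149 and Rpl13a at 1547 ± 146. The copies of Rps29 held 14.1% of the counts but 562 of these 1989 TPM, so these places rest partly on row lengths. Among the lowest were then Rpl24, at the same 16.02 TPM, Rps27l at 96.6 ± 7.64, Rps20 at 279 ± 18.1 and Rps3 at 289 ± 14.4 TPM. Rps27l is a p53-induced paralog of Rps27 that the naming rule takes in. The median over the 76 genes was 488 TPM for the gene rows alone and 668 TPM with copies, and the range with copies was 124-fold, with Rpl24 lowest under both. Since RNA of a gene and of a transcribed copy cannot be separated by these counts, both ways of counting are used for the 76 genes below.

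**Figure D1:**
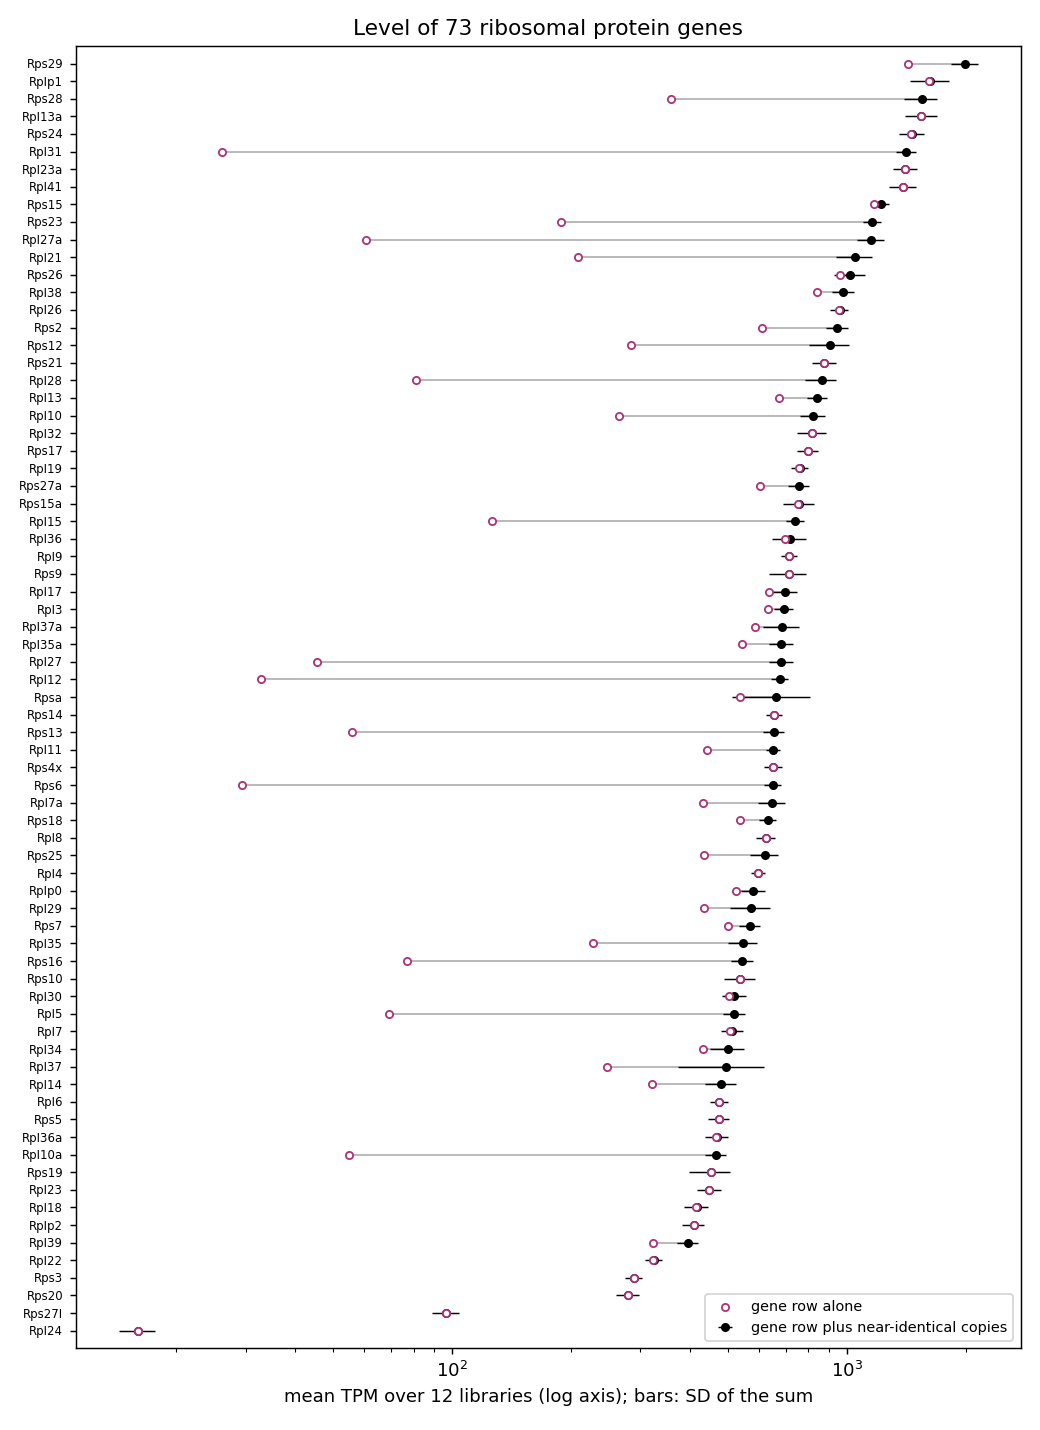
Mean TPM over 12 libraries of 73 of the 76 genes on a log axis, for the gene row alone (open points) and with its near-identical copies added (filled points, bars show the SD over libraries). Grey lines join the 2 values of a gene: Rpl31 lies at 26.2 TPM alone and at 1414 TPM with copies.

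Genes were said to have 2 levels where the ordered shares of counts on copies had a largest gap above 10 percentage points. This took in 18 of the 76 genes, and libraries of both genotypes stood at each level in 17 of them. Rps15, with shares of 0% or between 9.21% and 10.2%, fell just short of this limit. Rps2, a small-subunit protein near the path by which mRNA enters, was at 197, 438 and 224 CPM in female wt 1, 2 and 14, and at 191, 191 and 230.0 CPM in male wt 6, 9 and 19. It was at 398, 205 and 221 CPM in female P278KY 4, 7 and 10, and at 438, 466 and 212 CPM in male P278KY 3, 5 and 13. The 4 high values, those of female wt 2, female P278KY 4 and male P278KY 3 and 5, were thus set apart from the other 8. In those libraries 0.204% to 0.289% of the counts were on copies, and in the other 8 the share was 49.3% to 50.9%.

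With copies added Rps2 stood at 396, 438, 456, 380.2, 389 and 465 CPM in wt and at 402, 417, 435, 441, 468 and 430.3 CPM in mutant libraries, in the same order of mice by sex as above. The 2 levels had gone, and the coefficient of variation (CV, SD over mean of CPM scaled to library totals) was 38.7% alone and 7.21% with copies. Rpl7a, a large-subunit protein, gave the same picture: 0.581% to 0.833% of counts on copies in 4 libraries (female wt 1 and 2, female P278KY 4 and male P278KY 3), 47.7% to 50.6% in 8, and a CV of 42.9% alone and 8.26% with copies. For Rps26 only male wt 19 and male P278KY 13 had counts on copies above 0.0409%, at 30.2% and 29.4%.

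The copies concerned differ from the parent at few bases, seen in 30-base coding windows (5′ to 3′, GENCODE M21 on GRCm38) with the mismatches in capitals.
Rps2: aggaggttgcCactgccatCcgaggggcca
Rps2-ps13: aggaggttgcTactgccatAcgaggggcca
Rpl7a: gccccgctacatcagActgcagcggcaaag
Rpl7a-ps11: gccccgctacatcagGctgcagcggcaaag
Rps26: aagaaacaacggtcgCgccaaaaagggccg
Rps26-ps1: aagaaacaacggtcgTgccaaaaagggccg
Over the aligned coding sequence Rpl7a-ps11 and Rps26-ps1 each had 2 mismatches, and Rps2-ps13 had 7 beside 13 gap bases. Counts on Rps26-ps1 were 1951 and 1234 in male wt 19 and male P278KY 13 and at most 1.16 in the other 10 libraries.

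The split was not the same for every gene. Rpl13 was on the higher level in 4 libraries (52.4% to 55.6% of counts on copies), Rpl35a in 4 (50.4% to 50.8%), Rpl29 in 6 (33.7% to 37.4%) and Rplp0 in 5 (18.1% to 19.2%). Of the 18 genes, none was on its higher level in female wt 2, 2 in female P278KY 4, 2 in male P278KY 3 and 3 in male P278KY 5, whereas 14 were in male P278KY 13 and 13 in male wt 9. The remaining libraries had between 8 and 12. In Rps12 the lower level was female wt 2 alone, at 47.7% against 58.1% to 82.8%. The other libraries were spread over that range, so Rps12 meets the limit by 1 library and has no clear higher level. The 18 genes and those singled out here were chosen after their values were seen, and what sets the level in a library was not tested. Counts on copies are those assigned to them, and these counts do not show whether the RNA came from the copy or from an allele of the gene itself on the mixed B6J;CAST background.

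**Figure D2:**
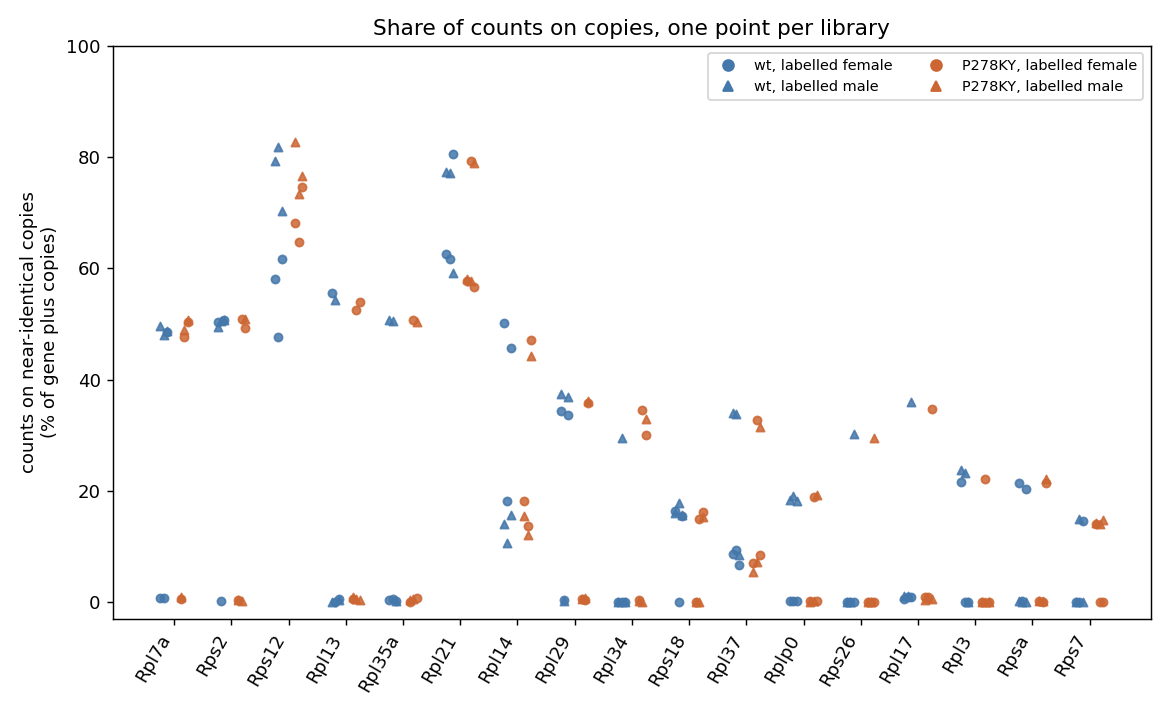
Percent of counts that were on near-identical copies, 1 point per library, for 17 of the 18 genes with 2 levels, ordered by CV. Blue is wt and orange P278KY, circles are labelled female and triangles male; in Rps2 the points lie at 0.204% to 0.289% or at 49.3% to 50.9%, with both genotypes at each level.

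The large spreads between libraries lay mostly in these genes. Alone, 10 genes, 9 of them among the 18, had a CV of at least 20%, with Rpl7a (42.9%), Rps2 (38.7%), Rps12 (37.5%) and Rpl13 (36.4%) highest, and with copies added none did. The highest CV with copies was 12.5%, and the median was 8.99% alone and 7.26% with copies. For the gene rows alone the steadiest were Rpl4 at 3.64%, Rpl6 at 4.86%, Rpl9 at 5.08% and Rpl8 at 5.30%, all large-subunit proteins. With copies the lowest were Rpl3 at 3.62%, Rpl4 at 3.64% and Rpl15 at 3.82%. On CPM scaled with TMM factors the median CV was 8.42% alone and 6.78% with copies, beside 7.78% for the 10000 other tested genes of at least 10 TPM.

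With the copies added, the 76 genes stood high or low together in a library. The median deviation from a gene's own mean over the libraries was -0.13 on the log2 scale in male wt 6, where 1 of 76 genes was above its mean, and -0.09 in female P278KY 4, where 5 were. It was 0.14 in female wt 14 (73 of 76 above), 0.10 in male wt 19 (72) and 0.09 in male P278KY 5 (73). The remaining 7 libraries lay between -0.05 and 0.04. Over all genes tested these medians stayed between -0.01 and 0.01. Related gene sets were unequal in some of the same libraries. Of translation factors and other TOP mRNAs the median deviation was -0.08 in male wt 6, 0.05 in female wt 14, 0.07 in male wt 19 and 0.06 in male P278KY 5, but -0.01 in female P278KY 4. Its lowest value was -0.09 in male wt 9 and its highest 0.072 in female wt 2, where the 76 genes were at -0.05 and 0.04. That of mitochondrial ribosomal protein genes was -0.08 in both male wt 6 and female P278KY 4 and 0.08 in female wt 14, but 0.01 in male wt 19. In female wt 1 it was 0.06, where the 76 genes were at -0.05. No difference between these sets and the 76 genes was tested. Both genotypes thus had libraries on each side, and the 2 highest values belonged to the sex-discordant wt libraries.

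Other summed markers were unequal between the same libraries. The 7 erythroid markers summed to 4801 CPM in female wt 14, 4776 in male wt 19 and 3400 in male P278KY 5, against 1134 in male wt 6 and 1918.5 in female P278KY 4, within a range of 1004 to 4801. Male P278KY 13, where the 76 genes were near their means (median deviation -0.01), had 4225 CPM. The 8 meningeal markers summed to 4797, 2099 and 2873 CPM in the first 3 and to 1506 and 1505 in the others, within a range of 1003 to 4797. Female P278KY 10 and 7, with median deviations of 0.00 and -0.04, had 2857 and 2631 CPM, more than male wt 19. The 16 cord markers summed to 20162.5, 25403 and 24908 CPM in the first 3 and to 14917 and 15384 in male wt 6 and female P278KY 4. Male wt 9 and female P278KY 7, with median deviations of -0.05 and -0.04, had 24552 and 24289.5 CPM. The 8 Schwann cell markers summed to 2353, 981 and 920 CPM in the first 3 and to 2958 and 2350 in male wt 6 and female P278KY 4. Every marker of these lists was detected in every library. The 12 skeletal muscle markers did not divide these libraries that way (42.9, 1138 and 516 CPM, against 18.0 and 385). Sensory ganglion markers did not either (840, 385 and 426 CPM, against 431 and 325). The part of any of these markers in the ribosomal protein levels was not tested.

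**Figure D3:**
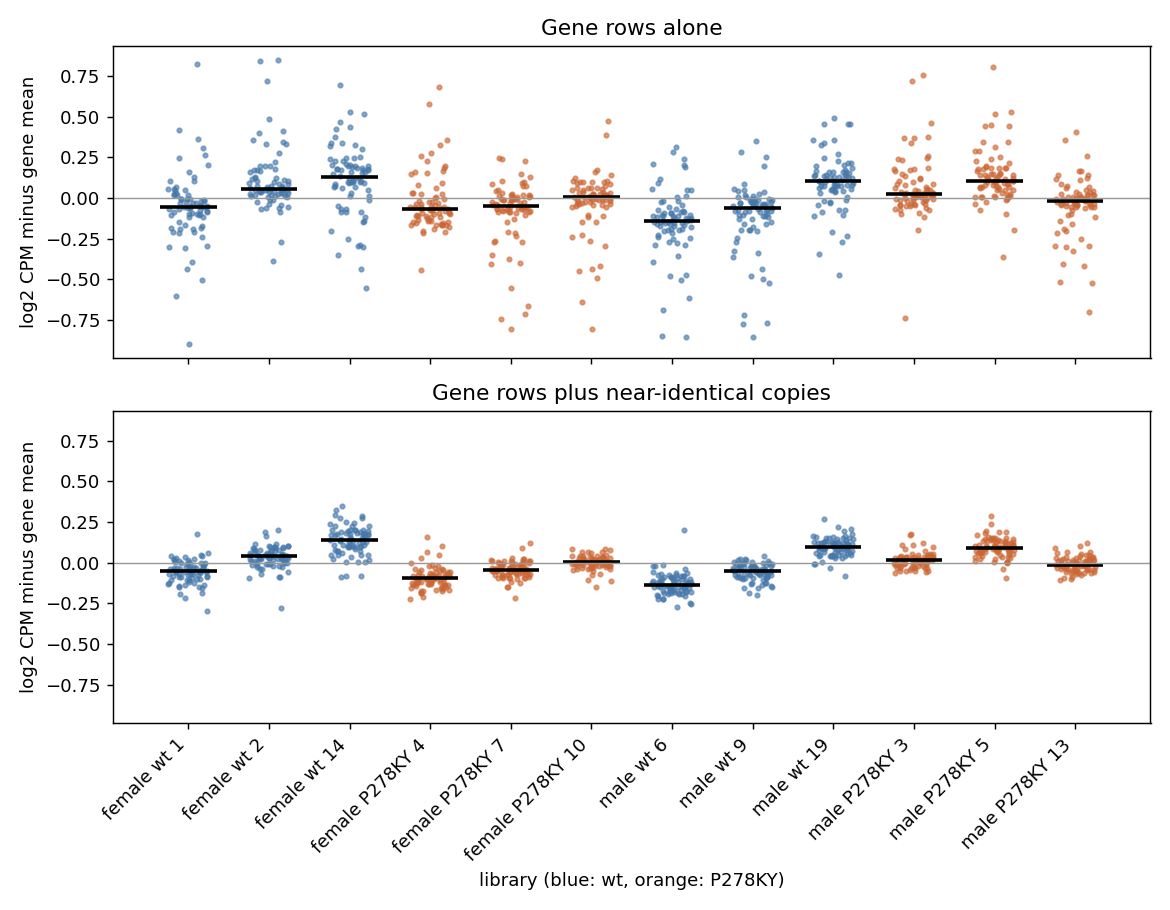
Deviation of log2 CPM of each of the 76 genes from its own mean, by library, for gene rows alone (top) and with copies added (bottom); black bars are medians over genes, blue wt and orange P278KY. With copies the points of a library draw together, lowest in male wt 6 (median -0.13) and highest in female wt 14 (0.14).

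Between genotypes no gene of the 76 passed the test. edgeR's quasi-likelihood fit over 17995 genes, with labelled sex as a term and Benjamini-Hochberg adjustment, called 0 of 76, where it called 0.00556% of all genes tested. At an unadjusted p under 0.05 there was 1 of 76, against 4.09% of all genes (1 higher against 2.40%, 0 lower against 1.69%). DESeq2 called 0 of 76 as well, against 0.185% of all genes. In no gene were all 6 P278KY libraries above (0.1% of all genes) or below (0.122%) all 6 wt libraries. Fitted log2 fold changes ran from -0.33 to 0.40 with a median of -0.01, equal to 2 decimals to that of all genes. By sign alone 46 of 76 were lower, against 53.1% of all genes.

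With copies added the fit over 17902 genes again called 0 of 76 (0.00559% of all genes; DESeq2 0 of 76, against 0.180%), and 0 of 76 had an unadjusted p under 0.05, against 4.13% (2.46% higher, 1.67% lower). Again no gene's groups were apart (0.106% of all genes higher, 0.117% lower). The fold changes then lay between -0.09 and 0.09, and 53 of 76 were lower, against 52.4% of all genes. All 95% intervals lay within -0.27 and 0.27, that is, between 0.829 and 1.21 fold, whereas for the gene rows alone they reached from -0.86 to 1.09. Changes past these bounds would lie outside the intervals of every one of the 76 genes. The count by sign rested on the sex-discordant libraries. Without female wt 14 it was 23 of 76 lower alone (50.5% of all genes) and 21 with copies (51.4%). Without both it was 16 alone (50.6%) and 7 with copies (50.6%).

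The 10 genes with the smallest p all had an adjusted p that rounds to 1. Rpl10, an X-linked large-subunit protein that joins late in assembly, had the smallest (unadjusted p = 0.0287). It stood at 58.0, 85.6, 66.6, 93.7, 73.7 and 81.5 CPM in wt and at 92.2, 88.0, 86.7, 97.3, 82.6 and 90.6 CPM in mutant libraries, and the groups overlapped. Its log2 fold change was 0.23 ± 0.09 (SE). With Rpl10-ps3 and its other copies, which held 67.7% of the counts, the means were 253 ± 23.4 and 259.7 ± 9.70 CPM and the fold change 0.04 ± 0.06 (unadjusted p = 0.573).

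Rps2 had the largest fold change of all, 0.40 ± 0.31, and Rps12 the lowest, -0.33 ± 0.22. With copies they were at 0.04 ± 0.06 and -0.03 ± 0.09. Rps16 went from -0.24 ± 0.16 to -0.08 ± 0.06 and Rpl28 from -0.12 ± 0.06 to -0.05 ± 0.08. Rpl27a went from 0.10 ± 0.05 to -0.02 ± 0.06, and Rps23, which lies in the decoding centre, from 0.08 ± 0.06 to -0.01 ± 0.05, a change of sign in both. Rpl15 went from 0.10 ± 0.07 to 0.03 ± 0.04 and Rps29 from -0.10 ± 0.08 to -0.06 ± 0.07. Rpl22, with few counts on copies, was at 0.07 ± 0.05 alone and 0.08 ± 0.05 with them. Over all 76 genes the fold change was nearer 0 with the copies in 50. Of the 76, 33 had under 1% of their counts on copies, so the 50 do not measure the added counts alone.

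**Figure D4:**
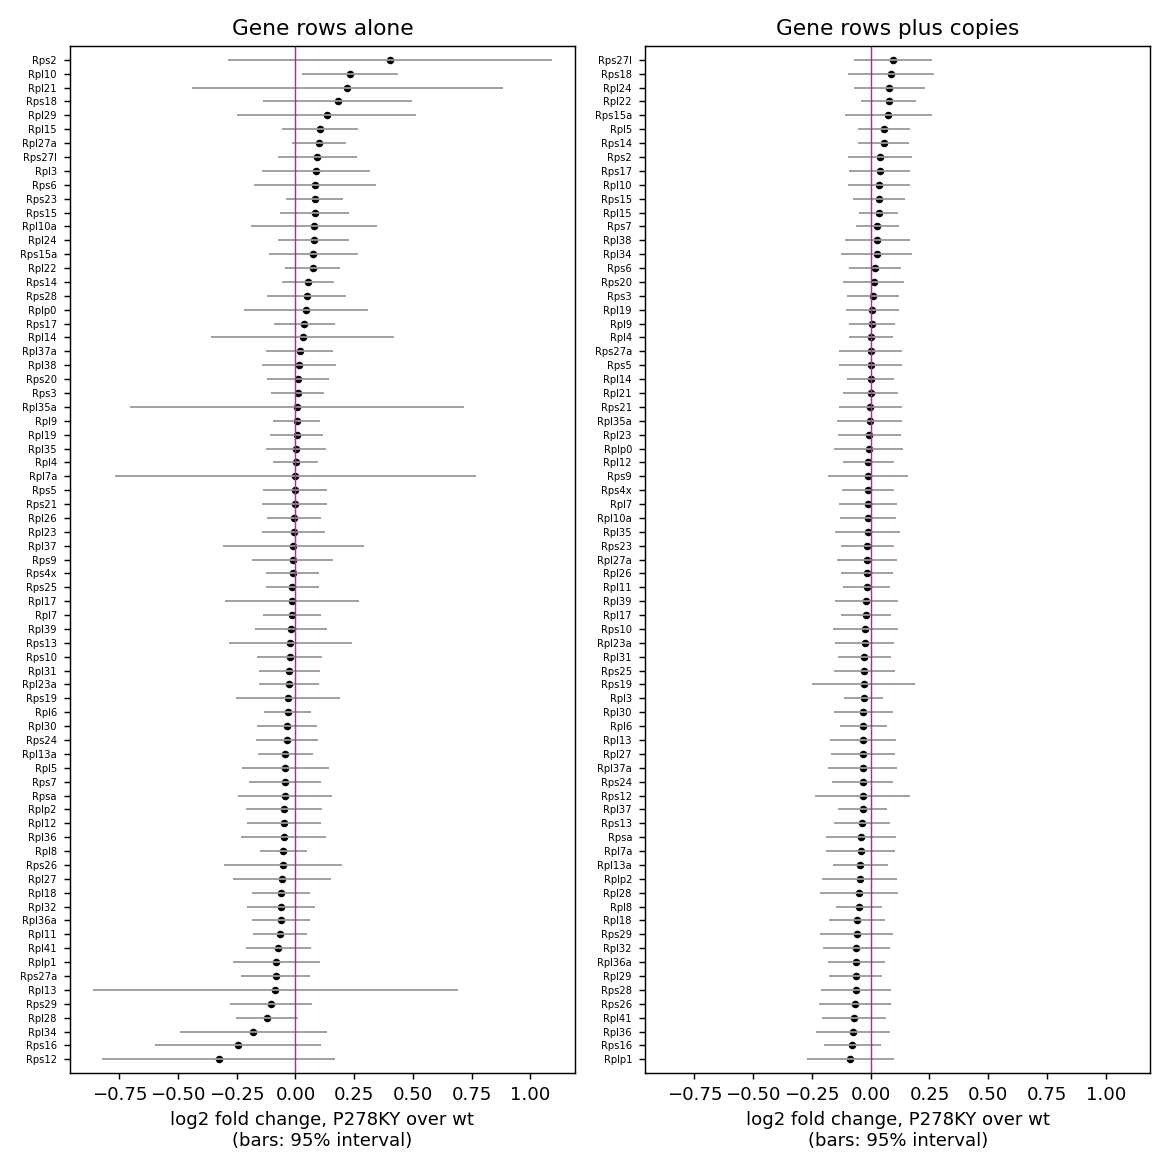
Log2 fold change of P278KY over wt with its 95% interval (edgeR, labelled sex as a term) for 73 of the 76 genes, ordered by value, for gene rows alone (left) and with copies added (right). The intervals narrow from -0.86 to 1.09 alone to -0.27 to 0.27 with copies.

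The stalk proteins Rplp0, Rplp1 and Rplp2 form the arm that activates the GTPases of translation. Rplp1 was at 279 ± 37.5 CPM in wt and 264 ± 18.96 in P278KY libraries, and Rplp2 at 105 ± 11.96 and 102 ± 6.68 CPM. Rplp0 was at 346 ± 67.5 and 353 ± 50.6 CPM, or at 379 ± 39.7 and 376 ± 21.6 CPM with copies. All 3 differences were smaller than the spread in either genotype.

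Within labelled sexes the signs pointed opposite ways. In females 59 of 76 genes were lower in P278KY (51.9% of all genes), and 70 of 76 with copies (51.5%). In males 61 of 76 were higher and 15 lower (50.7% of all genes lower), or 71 and 5 with copies (50.4% lower). None was called in females, males or the interaction, where 0.00% of all genes were called in each. Unadjusted p was under 0.05 in 6 of 76 in females (10.7% of all genes), 2 in males (4.91%) and 8 for the interaction (10.9%). With copies it was 6, 1 and 11 of 76, beside 10.7%, 4.98% and 10.9% of all genes. By direction, females had 3 higher (5.81% of all genes) and 3 lower (4.91%), or 1 (5.90%) and 5 (4.80%) with copies. Males had 2 higher (2.26%) and 0 lower (2.66%), or 1 (2.31%) and 0 (2.66%). For the interaction 0 were higher (6.20%) and 8 lower (4.73%), or 0 (6.30%) and 11 (4.65%). DESeq2 also called 0 of 76 in each, where it called 2.05%, 0.190% and 1.73% of all genes, or 2.58%, 0.191% and 1.72% with copies.

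The interaction, the female minus the male effect, had a median of -0.15 over the 76 genes both alone and with copies, against -0.01 for all genes alone. It was lower by sign in 66 of 76 (50.8% of all genes), or in 74 with copies (50.7%). Rpl17 had the smallest p alone (-0.59 ± 0.20, adjusted p = 0.327 by edgeR), followed by Rps16 (-0.72 ± 0.25, adjusted p = 0.337 by edgeR). With copies Rpl17 was at -0.20 ± 0.08 (adjusted p = 0.392 by edgeR) and Rps16 at -0.16 ± 0.11 (adjusted p = 0.613 by edgeR). Summed CPM with copies were 14350, 15289 and 16225 in female wt 1, 2 and 14 and 13825, 14388 and 14868 in female P278KY 4, 7 and 10. In males they were 13473, 14172 and 15861 in wt 6, 9 and 19, and 14908, 15731 and 14769 in P278KY 3, 5 and 13. The groups overlapped in both sexes, and the highest wt value of each sex came from a sex-discordant library. In males the overlap rested on wt 19, since wt 6 and 9 both lay below all 3 P278KY libraries. Without both sex-discordant libraries, 53 of 76 were lower in females with copies added (49.2% of all genes). In males 75 were higher (50.1% of all genes lower), and 73 had a lower female than male effect (50.8% of all genes). The count of genes with an unadjusted interaction p under 0.05 with copies, 11, was 29 without male wt 19, 2 without female wt 14 and 23 without both, and 0 were called in each. Leaving out male wt 19 took that count from 6 to 13 in females and from 1 to 12 in males. The share of all genes at this p was not taken for the fits with libraries left out. These counts therefore cannot be read as particular to the 76 genes.

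**Figure D5:**
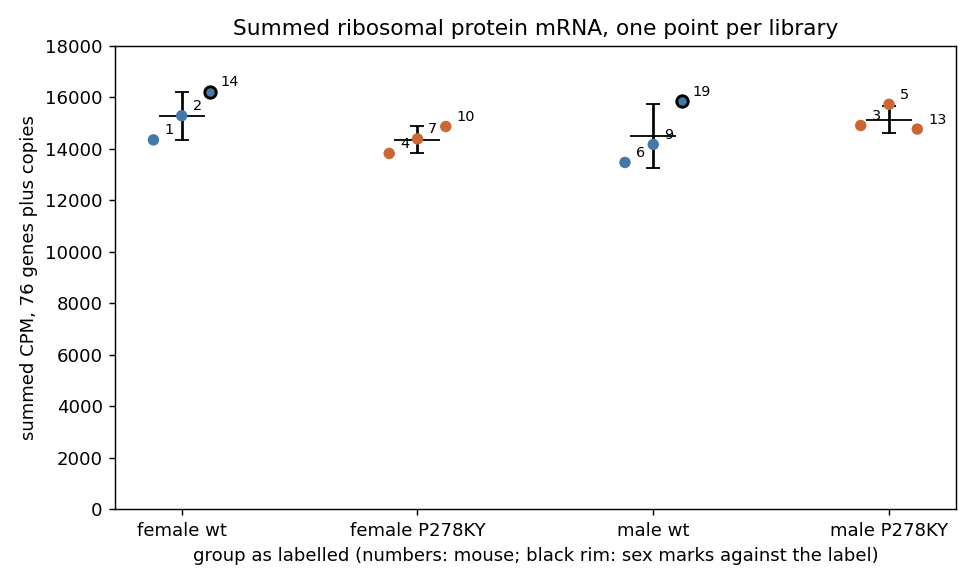
Summed CPM of the 76 genes with their copies, 1 point per library with the mouse number, by labelled group; horizontal bars and error bars give mean and SD of 3 libraries. The points with a black rim, female wt 14 (16225) and male wt 19 (15861), are the sex-discordant libraries.

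Between labelled males and females 0 of 76 were called, where 0.00% of all genes were called by edgeR, a comparison that holds both sex-discordant libraries. Unadjusted p was under 0.05 in 5 of 76 (4.60% of all genes) alone, 3 higher in males (1.97%) and 2 lower (2.62%), and in 0 with copies (4.58%; 2.02% higher, 2.56% lower). By sign 36 of 76 were lower in males (51.7% of all genes), or 33 with copies (50.7%), and DESeq2 called 0 of 76 (0.151% of all genes, 0.146% with copies). Rpl10, Rpl36a, Rpl39 and Rps4x lie on the X chromosome. Rps4x, the X-linked copy of a small-subunit gene, was at 294 ± 19.6 CPM in wt and 291 ± 12.7 in P278KY libraries, and its male minus female difference was 0.01 on the log2 scale. That difference was 0.01 in Rpl36a, 0.05 in Rpl39 and 0.13 in Rpl10, or -0.01 in Rpl10 with copies. Without both sex-discordant libraries it was 0.02 in Rps4x and in Rpl36a, 0.08 in Rpl39 and 0.10 in Rpl10. The count lower in males by sign was then 31 of 76 (49.1% of all genes), or 28 with copies (51.1%), and 0 were called. In 4 alone and 0 with copies unadjusted p was under 0.05, and the share of all genes was not taken for these fits. Leaving out 1 of these libraries moved the count by sign with copies to 13 (female wt 14, 50.2% of all genes) or 56 (male wt 19, 49.2%).

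The paralogs and the pathway lists are given for gene rows alone. Of the paralogs, Rpl3l was highest in the libraries with the most muscle RNA. It was at 0.486, 0.294, 0.502, 0.484, 0.425 and 3.06 CPM in wt and at 1.51, 4.80, 0.346, 7.97, 1.10 and 2.74 CPM in mutant libraries (log2 fold change 1.93 ± 0.74, unadjusted p = 0.0257, adjusted p of 1.00 by edgeR). The groups overlapped, and the 4 highest values were in male P278KY 3, female P278KY 7, male wt 19 and male P278KY 13. The 12 skeletal muscle markers, all detected in every library, summed to 3016, 1598, 1138 and 843 CPM in these 4 and to between 14.1 and 516 CPM in the other 8. With a muscle score, the scaled mean log2 CPM of these 12 markers, as a term in the fit the log2 fold change of Rpl3l was -0.28. Rpl22l1, at 39.4 ± 4.79 and 41.3 ± 1.58 CPM, Rpl36al, at 52.0 ± 5.05 and 50.4 ± 2.94, Rpl7l1, at 39.4 ± 2.997 and 38.9 ± 2.18, and Rps27l, at 16.02 ± 1.75 and 17.1 ± 1.33, differed between genotypes by less than the larger spread.

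Cytosolic ribosomal proteins whose symbols fall outside the naming rule were read beside them. Fau, a fusion of a ubiquitin-like domain with the small-subunit protein eS30, was at 30.4 ± 3.33 CPM in wt and 26.1 ± 2.61 in P278KY libraries (log2 fold change -0.22 ± 0.08, unadjusted p = 0.0225, adjusted p of 1.00 by edgeR). The share of its counts on copies was 74.9% to 76.2% in 5 P278KY libraries and 71.4% in the other, and 68.5% to 71.9% in 5 wt libraries and 74.8% in male wt 19. With copies Fau was at 105 ± 11.4 and 104 ± 6.68 CPM (-0.02 ± 0.07), or at a fold change of 0.0745 without both sex-discordant libraries. Gnb2l1, the scaffold protein RACK1, was at 221 ± 15.6 and 215 ± 10.4 CPM. Rps3a1 was at 235 ± 65.9 and 248 ± 56.1 CPM, or 300.4 ± 22.4 and 297 ± 14.6 CPM with copies, and had 2 levels like Rps2: 32.4% to 33.9% of its counts were on copies in 7 libraries and 0.0665% or less in the other 5.

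Genes of the wider pathway gave no call either, where 0.00556% of all genes were called, 53.1% were lower by sign and 4.09% had an unadjusted p under 0.05. Of 22 translation factors and other TOP mRNAs 0 passed the test in either direction, 12 were higher and 10 lower by sign, and the median log2 fold change was 0.00. Of 39 genes of ribosome biogenesis 28 were lower and 0 were called. The smallest p was in Polr1a, the large subunit of RNA polymerase I, which makes ribosomal RNA: 42.7 ± 4.01 CPM in wt and 37.0 ± 1.59 in P278KY libraries (-0.20 ± 0.06, unadjusted p = 0.00404, adjusted p of 1.00 by edgeR). Of 19 genes of mTOR control 13 were higher and 0 were called, with the smallest p in Eif4ebp1, a translation repressor, at 2.22 ± 0.788 and 3.19 ± 0.896 CPM. Of 76 mitochondrial ribosomal protein genes, which serve a separate ribosome, 54 were lower, 0 were called and the median was -0.03. The list counts by sign here and below hold both sex-discordant libraries and are not given without them. Whether they rest on these libraries, as the count of the cytosolic genes did, was not tested.

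Free ribosomal proteins such as Rpl5 and Rpl11 can bind Mdm2 and so raise p53, and p53 targets were a further list. It was chosen with earlier results of these data known, so its counts are a description and no test of the list. Of its 15 genes 0 were called (0.00556% of all genes) and 10 were higher and 5 lower by sign (53.1% of all genes lower), with a median of 0.03. Unadjusted p was under 0.05 in 3, all higher in P278KY (2.40% of all genes; 4.09% in either direction): Eda2r at 1.88 ± 0.398 and 3.06 ± 1.06 CPM, Trp53inp1 at 26.7 ± 4.80 and 32.6 ± 2.35 CPM, and Ccng1 at 59.7 ± 5.34 and 68.8 ± 7.36 CPM. Mdm2 itself was at 46.5 ± 2.06 and 47.5 ± 1.51 CPM. Of 15 tested genes whose human counterparts are mutated in Diamond-Blackfan anaemia, 11 were lower, 4 higher and 0 called, with a median of -0.03.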

How the data were processed

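Poly(A) RNA of spinal cord was sequenced paired-end after library preparation with KAPA kits, of which the labels' protocols name a stranded and a HyperPrep kit without tying either to a mouse. Per the submitters' processing notes the tools were Bowtie2 2.2.0 with RSEM 1.2.12. For genome build, annotation and strand setting: not given in the sources used here. The deposited values, per the file headers, are an expected count, a TPM value, transcript length and effective length per gene. Expected counts divide fragments among genes they fit, so near-identical copies can exchange them; the deposited TPM divides by length as the authors set it.

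Expected counts were rounded, filtered with filterByExpr over the 4 groups and scaled with TMM factors. edgeR 4.0.16 in R 4.3.3 (quasi-likelihood, robust, threshold 0.05) was fitted over all genes with genotype and labelled sex, and with 1 mean per group for within-sex and interaction effects. Alternatives used DESeq2 1.42.0 and limma 3.58.1, other factors, filters and left-out libraries. Intervals are 95% t intervals. The genotype fit was also run on simulated counts with known changes. That outcome is not given here, so no power to detect small changes is claimed.

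Named genes were the 10 highest and 5 lowest by TPM, the 10 smallest genotype p, the extremes of CV, the stalk, the X-linked genes, the paralogs and up to 4 genes per list. Members and lists were chosen with earlier results of these data known. The copy search, its limits, the omission of Flt3l and Wdr89 (which carry ribosomal sequence inside other genes), the limits for 2 levels and CV, and the minimum run of 8 were chosen after seeing the data. Positions come from RefSeq GRCm38.p6 and GENCODE M21. Replicates are separate mice. A few genes and sequences are counted in the totals but not reported here by name.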

Additional observations from a re-analysis of the deposited data

Results flagged for a closer look

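Of 156 groups of 6 libraries looked at (73 of the 76 genes with copies added, Rpl3l and 4 summed measures, in each genotype), 7 had 1 library far from the other 5 by Dixon's ratio, that is 4.49%, where chance gives about 1 in 20. Female P278KY 4 lay below the other P278KY libraries in Rpl34 (68.3 CPM, next 79.7) and Rps28 (76.6, next 83.8), and male P278KY 5 above them in Rps20 (129 CPM, next 119), Rps13 (136, next 121.5) and the summed share of TPM (4.23%, next 4.002%). Female wt 14 was above the other wt libraries in Rpl37 (128 CPM, next 116), and male wt 19 in Rpl3l (3.06 CPM, next 0.502). The cause was not tested.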

How the results depend on the processing

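The number of genes called was 0 in every comparison under each of the alternatives run: RLE factors, library totals, no filter or a strict one (CPM above 1 in 6 libraries), DESeq2, limma-voom, limma-trend on log2(TPM + 1), a threshold of 0.1, rows named as pseudogenes added, a minimum of 100 TPM or none, no sex term, a muscle score as a term, and each library left out. The alternatives with near-identical copies were chosen after seeing the data. The count of genes lower in P278KY, 46 of 76, ranged from 23 to 56 as libraries were left out in turn. With copies added it ranged from 21 to 63. Without both sex-discordant libraries it was 16, or 7 with copies added (50.6% of all genes in each), so its direction turned. The median log2 fold change ranged from -0.04 to 0.03 as libraries were left out in turn, or -0.05 to 0.02 with copies, and the summed share from -0.04 to 0.02. Signs turned with copies added in Rpl27a (-0.016, and -0.014 by DESeq2) and Rps23 (-0.014, -0.013 by DESeq2, and -0.016 with named pseudogenes), and with copies added without both sex-discordant libraries in Rpl28 (0.035), Rps12 (0.11), Rps29 (0.024) and Fau (0.0745). Rpl3l turned to -0.28 with the muscle score. Beyond these values the cause was not tested. No paired analysis was possible because every mouse has a number of its own and the groups share none. Counts of a gene and its copies cannot be separated here, and 6 libraries a genotype with unstated strand and build limit all of these results.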
